A study of Mus musculus with 8 samples.

Results

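Chromatin accessibility of BV2 cells grown with glioma cells was compared with that of BV2 cells grown alone, both at 21% oxygen. BV2 is an immortalised mouse microglial line and GL261 a mouse glioma line. The comparison used 4 of the 8 libraries of the study: 2 biological replicates of normoxic co-culture and 2 of normoxic monoculture. The other 4 libraries had the same culture arms under hypoxia (below 0.1% oxygen), share no library with the normoxic ones, and are used here as a second readout. In co-culture, BV2 cells were seeded onto GL261 cells at a ratio of 1 to 2, and after 24 h both cultures went through a further 16 h at their oxygen level in medium with 2% serum. All groups were fixed with 1% formaldehyde, cells positive for the leukocyte marker CD45 (or for GFP) were sorted, and 50000 cells went into each Tn5 reaction. Each group rests on this single line, and the sorted co-culture cells had been in direct contact with tumour cells.

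Microglia are the resident macrophages of the brain, and gliomas attract them and alter their state. In ATAC-seq the transposase Tn5 inserts adapters where DNA is free of nucleosomes, so peaks mark promoters, which are open in most cells, and distal elements such as enhancers, which tend to be specific to a cell type. Microglial enhancers are known for binding of factors such as PU.1, MEF2C and MAF proteins, and genes such as P2ry12, Cx3cr1 and Tmem119 mark the resting microglial state.

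The deposited data are 1 peak list per library, so a region is open here when it passed the peak caller's threshold in that list. Overlapping peaks of the 4 lists on chromosomes 1 to 19 and X were merged into 27594 regions. A region was gained with co-culture if both co-culture lists and neither monoculture list had a peak in it, and lost in the reverse case. By that rule 5093 regions (18.5%) were gained and 80 (0.29%) were lost. Another 6905 regions had a peak in all 4 lists and were compared by rank. For these, the deposited −log10 p of the strongest peak was ranked among the shared regions of each library, from 0 (lowest) to 100 (highest), since ranks in lists of different length cannot be compared. A shared region was called higher or lower when both co-culture ranks lay at least 10 points above or below both monoculture ranks. That held for 553 shared regions (8.01%) in the upward and 569 (8.24%) in the downward direction. A bulk library cannot tell a site that opened in all cells from one open in a larger share of cells. The part of any GL261 cells left after sorting, in gained regions and in rank differences, was not tested.

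Relative to distal elements, promoters ranked higher in co-culture: regions ranked higher lay mostly at start sites, and regions ranked lower mostly away from them. Ranks are centred within each library, so a rise of one kind of region and a fall of the other are a single observation, and the near-equal numbers of higher and lower calls follow from the ranking. The promoters below show the 2 ends of that contrast and 2 gained promoters. They are the 250 bases before the RefSeq start site on GRCm38.p6, written along the gene's strand. Capitals mark GGGCGG (the GC box bound by SP and KLF factors) or CCAATC on either strand. CCAATC is a form of the CCAAT box bound by NF-Y, and CCAAT followed by another base is not marked or counted. Camsap1 (chr2:25983283-25983532, minus strand) and Tgfbr1 (chr4:47352972-47353221, plus strand) lay in gained regions. Pik3r2 (chr8:70776713-70776962, minus strand), Hif1a (chr12:73907617-73907866, plus strand) and Bckdha (chr7:25658762-25659011, minus strand) lay in regions ranked higher, and Hpgds (chr6:65144731-65144980, minus strand) in a region ranked lower.
Camsap1: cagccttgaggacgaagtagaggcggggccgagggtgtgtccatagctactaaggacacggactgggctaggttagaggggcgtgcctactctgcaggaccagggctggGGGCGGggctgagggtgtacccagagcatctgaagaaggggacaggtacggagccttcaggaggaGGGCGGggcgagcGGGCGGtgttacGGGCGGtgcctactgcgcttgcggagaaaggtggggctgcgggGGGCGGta
Tgfbr1: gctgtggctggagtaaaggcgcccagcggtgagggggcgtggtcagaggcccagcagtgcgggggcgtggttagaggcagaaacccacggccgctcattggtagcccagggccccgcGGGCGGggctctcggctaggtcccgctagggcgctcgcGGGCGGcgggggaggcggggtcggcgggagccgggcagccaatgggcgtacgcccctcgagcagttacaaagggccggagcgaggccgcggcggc
Pik3r2: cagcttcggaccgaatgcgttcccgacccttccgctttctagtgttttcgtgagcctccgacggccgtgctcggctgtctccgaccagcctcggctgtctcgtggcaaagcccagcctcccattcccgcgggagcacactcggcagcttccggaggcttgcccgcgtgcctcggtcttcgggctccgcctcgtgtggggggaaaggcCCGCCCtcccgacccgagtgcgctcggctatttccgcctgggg
Hif1a: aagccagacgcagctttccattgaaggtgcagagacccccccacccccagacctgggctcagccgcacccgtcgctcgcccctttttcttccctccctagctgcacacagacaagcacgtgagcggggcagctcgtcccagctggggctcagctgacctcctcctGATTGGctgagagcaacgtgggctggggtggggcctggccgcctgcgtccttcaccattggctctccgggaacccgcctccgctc
Bckdha: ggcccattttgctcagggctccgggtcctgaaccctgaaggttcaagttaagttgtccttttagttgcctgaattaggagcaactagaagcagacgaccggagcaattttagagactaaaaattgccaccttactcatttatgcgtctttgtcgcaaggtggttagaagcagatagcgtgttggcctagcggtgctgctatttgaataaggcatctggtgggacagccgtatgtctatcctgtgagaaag
Hpgds: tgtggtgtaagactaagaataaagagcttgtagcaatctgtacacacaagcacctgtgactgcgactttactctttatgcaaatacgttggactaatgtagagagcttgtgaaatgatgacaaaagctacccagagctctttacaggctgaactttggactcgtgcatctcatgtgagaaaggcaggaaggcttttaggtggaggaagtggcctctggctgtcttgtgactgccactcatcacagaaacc
The Camsap1 stretch has 66.4% G and C and 5 GC boxes, and the Tgfbr1 stretch 74.8% and 2 GC boxes. Pik3r2 has 68.4% and Hif1a 66.4%, with 1 CCAATC match in the latter. CCAAT followed by another base also occurs, unmarked, in the Hif1a and Tgfbr1 stretches. Hpgds, at 45.2% with 3 CpG dinucleotides and no GC box, shows the composition of the few promoters that ranked lower. Neither Hif1a nor Bckdha has a GC box, and Bckdha has 47.6% G and C. The gained promoter of Pin4, not printed, has 51.2% G and C, 8 CpG dinucleotides and no GC box.

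Peak number differed between the normoxic cultures with no overlap. Monoculture had 13333 and 9910 peaks (mean 11622 ± 2420, SD, n = 2) and co-culture had 21790 and 21826 (mean 21808 ± 25.5, SD, n = 2). The ratio of 1.88 exceeded the spread between replicates, and the exact two-sided permutation p was 0.333, the smallest that 2 libraries against 2 allow. The hypoxic counts overlapped, at 24370 and 26339 peaks in monoculture and 29658 and 21633 in co-culture. The normoxic monoculture lists were the shortest of the 8. In normoxia depth moved with the groups. The background coverage solved from the authors' folds and p-values was 0.758 and 1.03 fragments per position in monoculture and 1.07 and 1.38 in co-culture, and the median summit held 18 and 21 against 24 and 26 fragments. When the lists were scaled to the lowest coverage, 4677 regions were gained and 79 lost. When each list was held to its 9903 strongest peaks, 966 were gained and 586 lost, so gains made up 62.2% of the changed regions against 98.5% in the lists as deposited. Gains outnumbered losses in all 3 versions, but the co-culture lists stayed longer as deposited and after scaling. In lists of equal number monoculture replicate 2 kept all its peaks and the other lists only their strongest. The size of the imbalance depended on how the lists were made comparable.

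**Figure D1:**
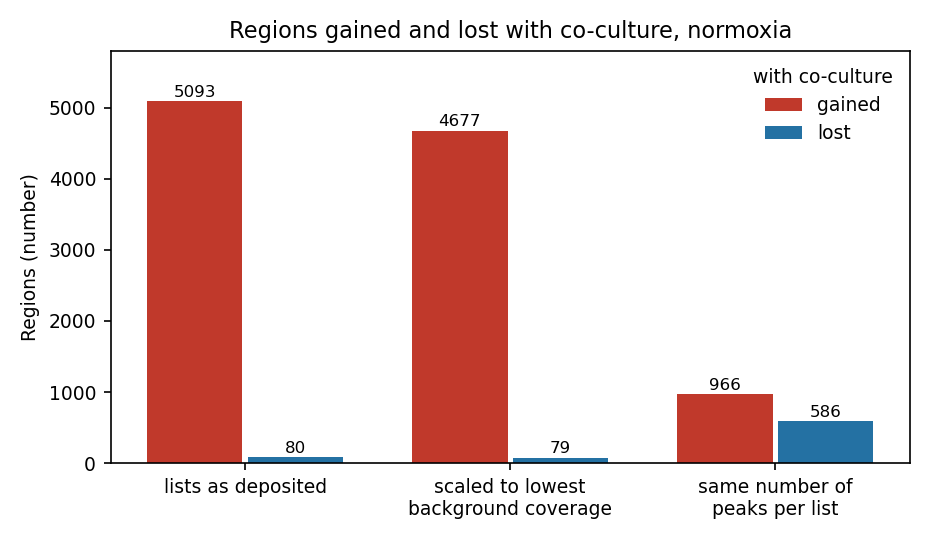
Number of regions gained (red) and lost (blue) with co-culture in normoxia, for the lists as deposited, for lists scaled to the lowest background coverage, and for lists of 9903 peaks each. Gains outnumber losses in each version, by 5093 to 80 as deposited and by 966 to 586 in lists of equal number.

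Gained regions were weaker than shared ones. The lower of the 2 co-culture percentiles, taken over the whole list, had a median of 28.4 (quartiles 15.3 and 45.9, range 0.0023 to 95.4). The same value was 75.3 for regions shared by all 4 lists. The 4586 regions just outside the rule, with peaks in both co-culture lists and 1 monoculture list, had a median of 46.7. The lost regions had a median of 16.5 over the 2 monoculture lists and reached 68.7. Calls among shared regions were also a matter of degree: the gaps of regions ranked higher began at 10.01 points, the nearest one outside had 9.99, and their median was 16.4 points.

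The strongest gained regions lay mainly at promoters. Of the 15 with the highest lower percentile, 10 held a listed start site, against 29.8% of all gained regions, and all 15 also had a peak in both hypoxic co-culture lists, against 67.3%. The first, a broad region of 8358 bp at chr8:123426044-123434401 that ends 4.03 kb from Tubb3, a neuronal tubulin gene, ranked at the 98.6 and 95.4 percentiles of the co-culture lists and had no peak in either monoculture list. It came back in both hypoxic co-culture lists (98.1 and 93.4) and in 1 hypoxic monoculture list (24.5). The promoter of Camsap1, which binds microtubule minus ends, followed at 95.7 and 95.3, at chr2:25983222-25983801. That region was open in both hypoxic monoculture lists too (97.2 and 94.9), so it was missing from the normoxic monoculture pair alone. The same held for the start sites of Pin4, a peptidyl-prolyl isomerase, Stk11, the kinase LKB1, Tfam, the mitochondrial transcription factor, and Ppp1r12b, a myosin phosphatase subunit. Stk11, for example, ranked at 86.9 and 86.5 in normoxic co-culture, 98.0 and 95.1 in hypoxic co-culture and 78.7 and 81.5 in hypoxic monoculture. An exception was an intronic region of Ppm1h, a protein phosphatase gene, at chr10:122862182-122862883: it ranked at 92.7 and 91.4 in normoxic and 89.9 and 83.7 in hypoxic co-culture and had no peak in any of the 4 monoculture lists. An element within Lgmn, which encodes the lysosomal protease legumain, had percentiles of 89.7 and 88.8 in normoxic co-culture and of 88.4 and 92.8 in hypoxic monoculture.

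Of the 10 strongest lost regions, 7 lay on chromosomes with listed start sites and none of these held one, and 3 lay on chromosome 18, for which the table used lists none. Among the 10 with the highest lower percentile, 6 were absent from both hypoxic co-culture lists and 4 were present in both, against 26.3% of all 80 lost regions present in both. A region 1.76 kb from Cst3, the cystatin C gene that microglia express strongly, at chr2:148877269-148877843, ranked at 48.7 and 53.7 in normoxic monoculture and 60.3 and 63.4 in hypoxic monoculture, with no peak in any co-culture list. A region within Eps8, which caps actin filaments, ranked at 81.9 and 55.9 in normoxic monoculture and had a peak in 1 hypoxic monoculture list (80.0). Regions within Itprip and near Gm36360 also had peaks in both hypoxic monoculture lists and neither hypoxic co-culture list. In contrast, a region near Hspb11 that ranked at 63.2 and 62.5 in normoxic monoculture was present in all 4 hypoxic lists, at 80.6 to 95.3. With 80 lost regions against 5093 gained, the call of a loss rests on few regions, and most of them lay in the lower part of their lists.

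Position divided the classes. A listed start site lay within 1 kb of 34.1% of gained regions (1679 of 4922, exact binomial interval 32.8 to 35.5), against 30.9% of all merged regions and 3.9% of lost regions (3 of 77). Among shared regions the share was 72.7% for those ranked higher (389 of 535, interval 68.7 to 76.4), 48.7% for those that were neither and 13.9% for those ranked lower (77 of 552, interval 11.2 to 17.1). These intervals cover counting error over regions only. Chromosome 18 has no listed start site in the table used and is left out of these shares. Leaving out 1 co-culture library turned the small excess of gained over all regions: without replicate 1 it was 28.7% of gained against 33.4% of all, and without replicate 2 it was 25.3% against 31.8%. Regions ranked higher (60.5% to 76.5%) lay above regions ranked lower (9.13% to 28.2%) under every alternative tried with a 1 kb distance.

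**Figure D2:**
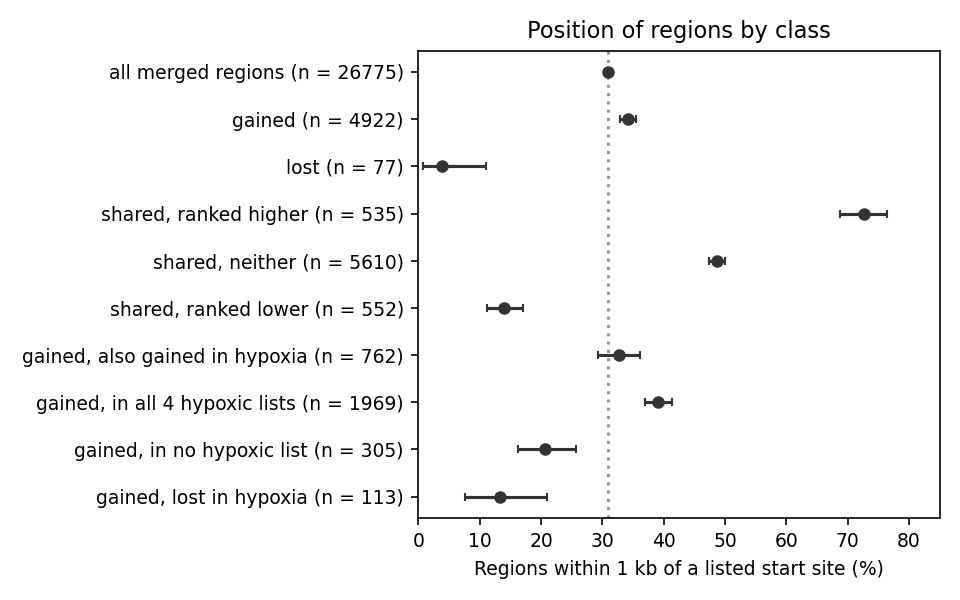
Percentage of regions of each class within 1 kb of a listed start site, with exact 95% binomial intervals over regions and the number of regions in brackets. The dotted line is the value of all merged regions, 30.9%, and regions ranked higher (72.7%) and lower (13.9%) lie on either side of it.

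The same contrast appeared as a value per library. Over the shared regions with a start site within 1 kb (3196), the median rank was 54.9 and 55.1 in monoculture and 60.3 and 64.8 in co-culture. Over the shared regions farther away (3501), in the same ranking, it was 46.8 and 46.7 in monoculture and 41.9 and 36.7 in co-culture. The groups did not overlap in either kind of region, and the exact permutation test on 2 libraries against 2 cannot go below 0.333. The distance between the 2 kinds was wider in co-culture replicate 2 than in replicate 1. Replicate 2 also had the higher background coverage of the co-culture pair (1.38 against 1.07) and 123 peaks wider than 10 kb against 67, and whether these had a part in the result was not tested. Scaling to the lowest coverage gave 544 regions ranked higher and 559 lower. With percentiles over the whole list in place of ranks among shared regions, 1632 regions ranked higher and 78 lower, as percentiles over the longer co-culture lists also count the weak peaks found there.

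**Figure D3:**
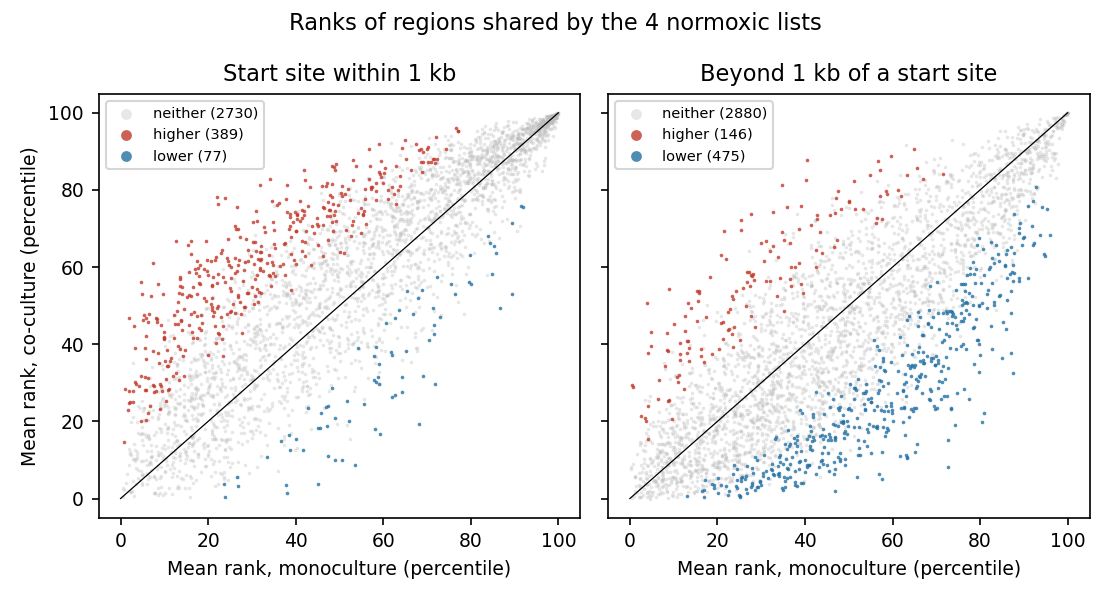
Mean rank of each shared region in normoxic monoculture (x axis, percentile) and co-culture (y axis, percentile), for regions within 1 kb of a start site (left) and beyond (right), with called regions in red (higher) and blue (lower). Higher calls number 389 at start sites and 146 beyond, and lower calls 77 and 475.

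Among regions ranked higher, 8 of the 10 with the widest gap held a start site, near the 68.0% of all regions ranked higher. The promoter shared by Bckdha, a subunit of branched-chain ketoacid dehydrogenase, and Exosc5, a subunit of the RNA exosome, had ranks of 10.3 and 4.34 in monoculture and 60.8 and 61.6 in co-culture, a gap of 50.5 points. Pik3r2, a regulatory subunit of phosphoinositide 3-kinase, rose from 29.7 and 18 to 78.4 and 77.3. Fignl1, an ATPase of recombination repair, rose from 9.07 and 16.1 to 63.3 and 70.4. Promoters of Bclaf1, Lmbr1, Ube2z, Ccdc171 and Dnajc14 and a site within Mnt, a repressor that pairs with MAX, 0.967 kb from a start site, followed with gaps of 39.0 to 45.6 points. Only 1 of the 10, near Gm39806, lay more than 1 kb from a listed start site.

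None of the 10 regions with the widest downward gap held a start site, which 11.96% of all regions ranked lower did. A region within Acadm, which encodes medium-chain acyl-CoA dehydrogenase, had ranks of 69.4 and 76.1 in monoculture and 7.97 and 8.54 in co-culture, a gap of 60.9 points. A region within Htr2a, a serotonin receptor gene, fell from 74.7 and 73.8 to 17.4 and 20.6. An element within Tlr7, the endosomal sensor of single-stranded RNA in macrophages, at chrX:167318453-167319338, fell from 66.4 and 64.7 to 11.4 and 17.0. An element within Mef2c, a transcription factor of microglia, at chr13:83565754-83566682, fell from 46.7 and 47.0 to 2.40 and 1.76. An immunoglobulin heavy chain region at Ighv1-72 fell from 73.2 and 88.4 to 21.0 and 23.3, and it had a peak in both hypoxic monoculture lists and in neither hypoxic co-culture list. A region in the immunoglobulin heavy chain locus can share reads with its many similar V segments, so its position is uncertain. Of the few start sites that ranked lower, chosen here after their values were seen, Hpgds, the haematopoietic prostaglandin D synthase, fell from 65.7 and 62.7 to 22.2 and 33.0. The interferon-inducible genes Ifi211 and Ifi203, members of a family with similar copies, had gaps of 29.4 and 29.0 points.

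Promoter sequence also differed between the classes. Promoter windows here run from 250 bases before to 50 after the start site. Those in gained regions had a median of 62.0% G and C and 23 CpG dinucleotides (1969 windows), and those in regions ranked higher had 63.0% and 24 (535 windows). Windows in shared regions with no call had 61.3% and 22. Windows in regions ranked lower had 51.3% and 5 (127 windows of 99 genes), near the median of windows with no region, 49.7% and 4. The GC box GGGCGG, searched on both strands, was present in 68.0% of gained, 76.4% of higher and 33.1% of lower windows, against 35.9% of all 32619 windows and 66.5% of shared windows with no call. CCAATC, the only form of the NF-Y box searched, was present in 17.5% of gained windows, slightly above the 16.2% of all windows. That was below the 28.8% of shared windows with no call and 22.6% of higher windows. The MAF recognition half-site TGCTGAC was present in 13.4% of lower windows (17 of 127), 4.71% of all windows and 3.56% of shared windows with no call. The E-box CACGTG was present in 11.5% of gained windows and 7.20% of all, and the AP-1 site TGACTCA in 3.35% of gained, 4.72% of lower and 5.22% of all windows. Both gained shares lay near those of shared windows with no call, 10.1% and 3.48%. The PU.1 motif GAGGAAGT was in 3.45% of gained windows, near the 3.22% of all windows and 3.80% of shared windows with no call, and in 6 of 127 lower windows (4.72%, exact binomial interval 1.75 to 10.00). A match is a run of letters in the window and not an observed binding site.

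The hypoxic libraries give the same culture contrast in cells not used to define the regions. Of the gained regions, 813 (16.0%) had a peak in both hypoxic co-culture lists and in neither hypoxic monoculture list, against 5.85% of all 27594 regions. The reverse pattern held for 114 gained regions (2.24%), against 2.58% of all. A further 2019 gained regions (39.6%) were open in all 4 hypoxic lists, against 49.0% of all regions, and 315 (6.19%) in none, against 12.4%. Peaks in both hypoxic monoculture lists, whatever the hypoxic co-culture lists held, were found in 2593 gained regions (50.9%), against 60.7% of all regions. Of the lost regions, 0 of 80 were gained in hypoxia and 13 (16.3%) were lost there too, against 2.58% of all regions. Merged on their own, the hypoxic lists gave 38123 regions, with 2392 gained (6.27%) and 1578 lost (4.14%) with co-culture. Gained regions open in all 4 hypoxic lists lay within 1 kb of a start site in 39.1% of cases. That share was 32.7% for regions gained at both oxygen levels, 20.7% for those in no hypoxic list and 13.3% for those lost in hypoxia.

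Rank differences of shared regions went the same way in hypoxia more often than not. In a merge of all 8 lists, 6372 regions lay in every list and were ranked again among themselves. The 490 of these ranked higher in normoxia had a median rank difference of 13.8 points between hypoxic co-culture and monoculture, and 81.2% were higher in hypoxic co-culture, against 48.7% of all 6372. The 513 ranked lower had a median difference of −17.8 points, and 84.8% were lower in hypoxic co-culture, against 51.2% of all. By the rule of 10 points, 189 of the 490 were called higher in hypoxia and 14 lower, while 213 of the 513 were called lower and 14 higher. Over all 6372 regions the hypoxic calls were 15.6% higher and 16.3% lower. Within 1 kb of a start site the regions ranked higher in normoxia were higher in hypoxic co-culture in 84.2% of cases, against 67.4% of all start-site regions. Beyond 1 kb the shares were 71.0% and 29.6%. Of the regions ranked lower in normoxia, 67.1% at start sites were lower in hypoxic co-culture, against 32.6% of all start-site regions, and 88.9% beyond 1 kb, against 70.3% of all distal regions. The median rank of start-site regions was 51.2 and 49.1 in hypoxic monoculture and 61.7 and 66.1 in hypoxic co-culture, and that of distal regions 50.0 and 51.2 against 41.0 and 36.4.

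**Figure D4:**
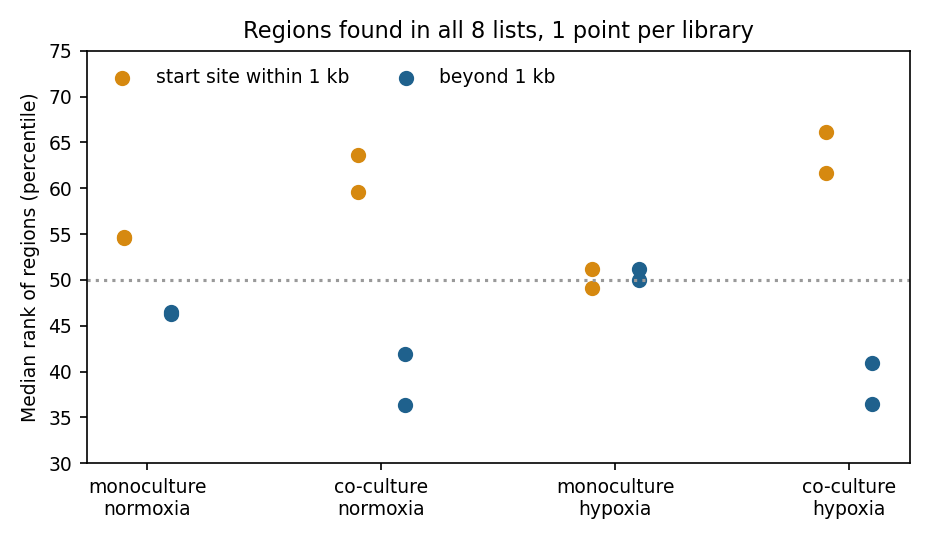
Median rank (percentile) of the regions found in all 8 lists, 1 point per library, for regions within 1 kb of a start site (orange, 3071 regions) and beyond (blue, 3107 regions). The 4 co-culture libraries lie at 59.6 to 66.1 for start sites and 36.4 to 41.9 for distal regions, outside the range of the 4 monoculture libraries.

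Gains were spread unevenly over chromosomes. The share of regions gained was highest on chromosome 10, at 29.5% (337 of 1144), and lowest on X, at 12.6%, with a median of 17.8% over the 20 chromosomes. Chromosome 10 had no lost region, and 16.1% of its shared regions ranked higher. Its 20 Mb bins ranged from 22.4% to 36.3% gained, so the excess was not limited to 1 stretch. In hypoxia chromosomes 11 (10.8%) and 10 (10.5%) had the highest shares, against a median of 5.64%. Over the 20 chromosomes the normoxic and hypoxic shares had a Pearson r of 0.827 and a Spearman rho of 0.880, given as a description because the points of one contrast share their libraries. Copy number of these lines was not measured here, and its part in the chromosome shares was not tested. Without chromosome 10, 33.5% of gained regions lay within 1 kb of a start site.

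Genes were then grouped by 13 lists of known function and scored by regions within 10 kb. Over all 21631 protein-coding genes, 21.6% had a gained region, 0.199% a lost one, 3.81% a region ranked higher and 1.95% a region ranked lower. Genes with many regions have more chances of a gain: the share was 21.0% for genes with 1 region, 36.3% with 2, 50.2% with 3 or 4 and 65.7% with 5 or more, and among the 13999 genes with any region it was 33.3%. The median number of regions per gene was 3 in the cytoskeleton list, 2 in the microglial, tumour-associated macrophage, NF-kappaB, adhesion, hypoxia and housekeeping lists, 1.5 in the protease list and 1 in the other 5. The shares below are given beside these values and carry no test. Gained regions count among a gene's regions, and a list can hold genes with no region and genes with many. The shares by number of regions are therefore not like comparators for a list. Of the list genes, those named for a region ranked higher, for having no region or no call, and Mertk, Tmem119, Bmpr1a, Postn and Sparc were chosen after their values were seen. The 4 lists below the protein-coding share within 10 kb were above it within 50 kb, where it was 39.6%: inflammatory (17 of 26), interferon (12 of 26), adhesion (15 of 32) and glial (9 of 22). A region within 10 kb of a list gene can lie at another gene, which is named where it holds that gene's start site. In lists of equal number the counts were far smaller: 21 of 323 list genes (6.50%) had a gained region, against 5.05% of protein-coding genes, where the lists as deposited gave 104 of 323 (32.2%) against 21.6%. By list, with some genes in more than one list, the genes with a gain in lists of equal number were 1 microglial, 3 tumour-associated macrophage, 4 TGF-beta, 1 NF-kappaB and AP-1, 2 inflammatory, 0 interferon, 3 cytoskeleton, 2 protease, 1 adhesion, 1 hypoxia, 2 housekeeping, 2 glial and 0 mesenchymal. There the microglial, NF-kappaB, hypoxia and mesenchymal lists lay below the protein-coding share and the inflammatory and glial lists above it. The lists as deposited gave the reverse for each of these.

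Microglial identity genes had both kinds of change. Of 25 genes, with a median of 2 regions, 11 (44%) had a gained region. Over all protein-coding genes the share was 21.6%, and over those with 2 regions 36.3%. In lists of equal number 1 of the 25 had a gain, against 5.05% of protein-coding genes, so the direction turned. As deposited, 3 genes had a region ranked lower and none one ranked higher. Runx1, a transcription factor of the myeloid lineage, had a gained region at a start site (percentiles 56.9 and 65.5), and Trem2, a lipid receptor of microglia, at its own start (41.9 and 66.4). Cd14, the co-receptor for lipopolysaccharide, and Ptprc, which encodes the sorted marker CD45, had gained regions at 38.8 and 38.1 and at 66.7 and 38. All 4 of these regions had peaks in both hypoxic monoculture lists. The downward calls were the Mef2c element and 2 others. P2ry12, the ADP receptor that guides microglial processes, had a region 1.80 kb from a start site at chr3:59260386-59261183 with ranks of 75.6 and 69.8 in monoculture and 52.3 and 15.3 in co-culture. That region overlaps Med12l as well, and in hypoxia it had peaks in both monoculture lists and neither co-culture list. A region 4.97 kb from Cx3cr1, the fractalkine receptor, fell from 40.8 and 40.9 to 10.7 and 6.63. Mef2c (37.6 and 15.3) and Cx3cr1 (1.67 and 37.9) also had a gained region within the gene. So did Tmem119, a marker of resting microglia with no region ranked lower (38.7 and 21.0). In hypoxia 1 of the 25 genes had a gained region, against 10.6% of protein-coding genes, and 1 had a lost region, against 5.12%. C1qa, C1qb, C1qc and Sall1 had no region in any of the 4 lists. The labelled cell type was checked with the same list: 15 and 13 of 25 genes had a peak within 10 kb in monoculture and 20 and 20 in co-culture.

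Genes linked to tumour-associated macrophages had gained regions at 12 of 25 (48%), also with a median of 2 regions per gene, and at 3 of 25 in hypoxia. Lgals3, which encodes galectin-3, had a gained region 1.77 kb from the gene at 74.6 and 73.5. A gained region 9.77 kb from Stab1, a scavenger receptor gene, ranked at 73.0 and 76.0 and holds the start site of the neighbour Smim4. Regions of Tgfb1 (57.6 and 59.8) and of Lpl, lipoprotein lipase (52.6 and 56.8), followed. These 4 regions had peaks in all 4 hypoxic lists. Within Mertk, a receptor for apoptotic cells, a region at 22.9 and 13.4 was gained at both oxygen levels. A region 0.196 kb from Axl, a related receptor, ranked higher, with 46.0 and 68.2 in monoculture and 80.5 and 80.8 in co-culture, and it holds the start site of the neighbour Hnrnpul1.

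TGF-beta signalling genes include the ligands, receptors and SMAD proteins of a pathway on which microglial identity depends. They had gains at 9 of 25 (36%), against 21.6% of protein-coding genes. The count was 14 of 25 without monoculture replicate 1, against 32.6%, and also without co-culture replicate 2, against 30.3%. Among ligands, a region within Tgfb2 (67.2 and 64.6) was gained at both oxygen levels. Among receptors, the Tgfbr1 promoter printed above ranked at 74.3 and 87.5 in co-culture and was open in all 4 hypoxic lists. The start site of Bmpr1a was gained at 38 and 52.3. Elements within the receptor genes Tgfbr2 and Acvr1 ranked lower, Tgfbr2 with 84.5 and 90.8 in monoculture and 56.1 and 61.0 in co-culture, and Acvr1 with 42.0 and 33.0 against 16.8 and 14.5. Smad7, the inhibitory SMAD, had a region gained at both oxygen levels (52.3 and 43.6).

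NF-kappaB and AP-1 factor genes had gains at 8 of 26 (30.8%), against 21.6% of all protein-coding genes and 36.3% of those with 2 regions. Regions ranked higher lay at 4 of these genes and regions ranked lower at 1. Gains numbered 13 of 26 without monoculture replicate 1, against 32.6% of protein-coding genes, and 15 of 26 without co-culture replicate 1, against 30.7%. The promoter of Rel rose from ranks of 11.0 and 13.6 to 39.5 and 43.8, and that of Nfkb2 from 19.7 and 16.4 to 68.2 and 43.6. Bcl3, a nuclear co-factor of NF-kappaB, had a region that rose from 5.66 and 0.775 to 37.5 and 22.7, and a region within Bach2 rose from 18.6 and 13 to 54.6 and 51.8. Regulators that restrain or tune NF-kappaB were among the gains: the start site of Nfkbia at 49.9 and 72.1, that of Tnfaip3 at 43.4 and 48.5, and a region of Nfkbiz at 67.6 and 61.0. Tnfaip3 and Mafk were gained at both oxygen levels. A second region, 8.20 kb from Nfkbia, ranked lower, from 28.6 and 32.5 to 16.7 and 6.10. Inflammatory cytokine and chemokine genes had gains at 3 of 26 (11.5%) within 10 kb, below the protein-coding share: 1 region near the neighbours Cxcl1 and Cxcl2 (20.03 and 20.74) and 1 near Il1b (35.1 and 12.2). The direction turned in lists of equal number (2 of 26 against 5.05%), and no gene had a gain within 1 kb. The count was 7 without monoculture replicate 1 (protein-coding share 32.6%), 5 without monoculture replicate 2 (26.1%) and 5 without co-culture replicate 2 (30.3%). Tnf, Il6 and Ccl2 had regions and no call, and Nos2 and Il12b had no region. Interferon and antigen presentation genes also had 3 of 26 (11.5%), and 7 without monoculture replicate 1 (protein-coding share 32.6%). Without co-culture replicate 1 or 2 the count was 10 of 26, above the protein-coding shares of 30.7% and 30.3%. Among the 3 were gained regions at the start sites of Irf1 (35.9 and 51.8) and Ifih1 (29.5 and 33.1). A region 1.27 kb from Isg15, overlapping Gm46878, ranked higher (58.0 and 58.7 against 73.1 and 81.7).

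Genes of the cytoskeleton and of migration had gains at 17 of 30 (56.7%), against 21.6% of all protein-coding genes. The share was 50.2% for protein-coding genes with 3 or 4 regions, and the median number of regions per gene was 3 in this list. Regions within Vav3 (71.8 and 74.7) and Vav1 (58.3 and 65.2), guanine nucleotide exchange factors, were gained. So were regions within Myo10, a myosin of filopodia (88.2 and 64.7), and Ptk2b, a focal adhesion kinase (54.7 and 47.9). The Myo10 region had no peak in either hypoxic monoculture list and ranked at 77.0 and 65.3 in hypoxic co-culture. A region of Elmo1, needed for engulfment, rose from ranks of 8.41 and 14.1 to 27.0 and 37.0, and a region of its partner gene Dock2 fell from 44.2 and 48.7 to 30.0 and 21.7.

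Protease and adhesion genes changed in both directions. Of 24 protease and invasion genes, 7 (29.2%) had a gained region, with Adamts1 at its start site (74.1 and 65.6) and Plat, tissue plasminogen activator (58.5 and 65.6), the highest. The count was 12 without monoculture replicate 1 (protein-coding share 32.6%). It was 4 in lists scaled to the lowest coverage, below the protein-coding share there of 20.3%. Regions near Mmp14 (6.65 kb), a membrane-bound matrix protease, and at its partner Timp2 were gained at both oxygen levels. Regions within 10 kb of 3 protease genes ranked lower: Mmp12, the macrophage elastase (72.4 and 76.4 against 53.2 and 40.7), Adam8 (76.2 and 81.0 against 53.9 and 62.6) and Mmp8 (44.3 and 45.0 against 11.9 and 20.3). The Mmp12 region lay 6.82 kb from its gene, and the Mmp8 region lay 3.98 kb away and overlaps Mmp27. Of 32 adhesion and contact genes, 6 (18.8%) had a gain, below the protein-coding share. That direction turned without co-culture replicate 2 (16 of 32 against 30.3%), without co-culture replicate 1 (11 against 30.7%), without monoculture replicate 1 (12 against 32.6%) and without monoculture replicate 2 (9 against 26.1%). Sirpa, the receptor for the "do not eat me" signal CD47, had the highest (78.4 and 60.1). The promoter of Itga4, an integrin subunit, rose from 2.87 and 0.876 to 20.2 and 29.6, a region near Itgb1 fell from 52.9 and 25.1 to 3.44 and 4.66, and a region within Nrp1, a semaphorin co-receptor, was lost.

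Hypoxia response genes were examined because both groups had 21% oxygen. Of 22 genes, 6 (27.3%) had a gained region, against 21.6% of all protein-coding genes and 36.3% of those with 2 regions. Regions ranked higher lay at 2 of the 22. Gains numbered 14 of 22 without monoculture replicate 1, against 32.6% of protein-coding genes. They numbered 10 of 22 without co-culture replicate 1 or 2, against 30.7% and 30.3%. The Hif1a promoter rose from ranks of 18.8 and 20.6 to 52.9 and 70.8, and that of Slc2a1, the glucose transporter GLUT1, from 36.5 and 27.8 to 55.0 and 51.5. Start sites of Ddit4 (73.1 and 74.0), Pdk1 (52.2 and 70.6) and P4ha1 (34.0 and 51.1) were gained, and all 3 were open in all 4 hypoxic lists. Car9, Vegfa and Ldha had regions and no call. The ACGTG core of the hypoxia response element was in 28.0% of gained windows, 28.8% of shared windows with no call and 19.8% of all. Housekeeping genes, taken as a reference, had gains at 11 of 20 (55.0%), or 7 within 1 kb of the gene, and regions ranked higher at 4, against 56.7% and 1 in the cytoskeleton list. Tbp, the TATA-binding protein, had a gained region at its start site at 60.6 and 65.0.

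**Figure D5:**
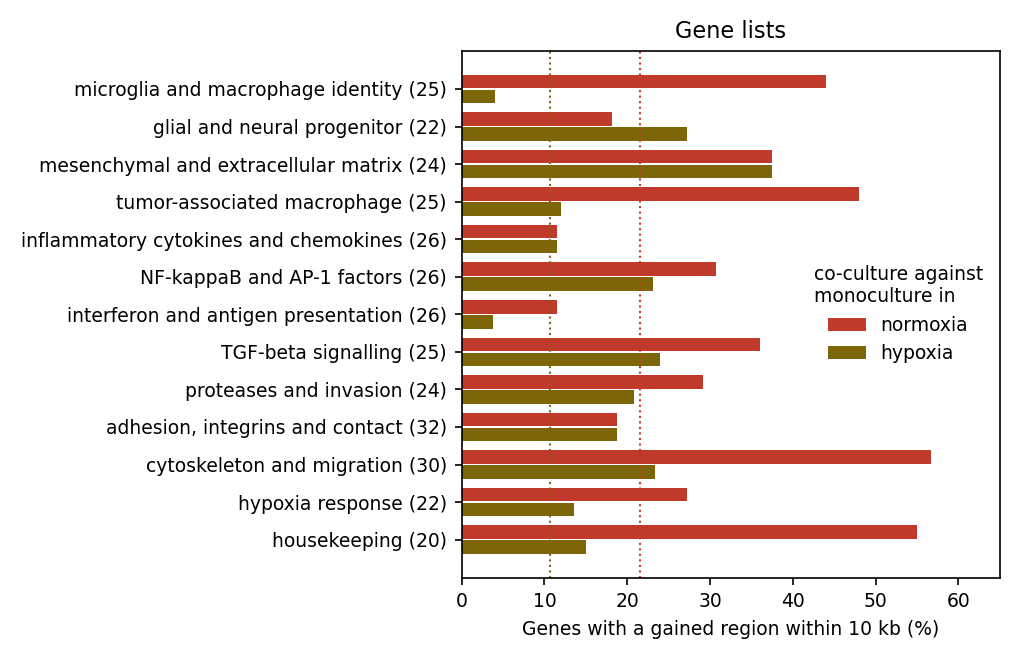
Percentage of the genes of each list (number of genes in brackets) with a gained region within 10 kb, in normoxia (red) and hypoxia (brown). Dotted lines give the values of all protein-coding genes, 21.6% and 10.6%, and the microglial list lies above the line in normoxia (44%) and below it in hypoxia (4%). In normoxic lists of equal number, not drawn, 1 of 25 microglial genes had a gain, below the protein-coding share of 5.05%.

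Markers of other cells moved with culture and are given beside these results. Of 22 glial and neural progenitor genes, 4 and 2 had a peak within 10 kb in normoxic monoculture and 12 and 9 in normoxic co-culture. In hypoxia the numbers were 7 and 7 against 14 and 12. Of 24 mesenchymal and matrix genes, 2 and 3 had one in monoculture and 13 and 12 in co-culture, and 12 and 14 against 18 and 14 in hypoxia. The 20 housekeeping genes went from 15 and 12 to 19 and 19 and the microglial genes, as above, from 15 and 13 to 20 and 20. Gained regions lay near 4 glial genes (18.2%): Tubb3, Vim (61.8 and 58.4), Slc1a3 (46.4 and 56.4), which also had the list's lost region, and Nfia (60.5 and 20.4). That share was below the 21.6% of protein-coding genes. The direction turned without co-culture replicate 1 (7 of 22 against 30.7%) and without co-culture replicate 2 (10 of 22 against 30.3%). It did not turn without either monoculture replicate. The mesenchymal list had 9 (37.5%), with Ccn1 (59.0 and 50.1) and Thbs1, thrombospondin-1 (41.1 and 52.8), the highest. Within 1 kb of the gene the count was 4 of 24, near the protein-coding share of 15.7% at that distance. A region within Tead1, a transcription factor of the Hippo pathway, ranked lower, from 65.9 and 59.2 to 44.4 and 14.7. The Thbs1 region holds the start site of the neighbour Gm13986. Regions near Thbs1, Postn, Sparc and Cdh2 were absent from all 4 monoculture lists and present in all 4 co-culture lists. At listed start sites, 1 and 0 of 17 glial genes had a peak in normoxic monoculture and 4 and 3 in normoxic co-culture, and in hypoxia 2 and 2 against 5 and 4. Of 14 mesenchymal genes with a listed start site, 0 and 0 had one in monoculture and 1 and 1 in co-culture, and in hypoxia 0 and 0 against 3 and 2. The defining glial genes Sox9, Olig2, Egfr, Fabp7, S100b, Ptprz1 and Prom1 and the matrix genes Fn1, Tnc, Col1a2 and Ccn2 had no region in any of the 4 lists. The part of remaining GL261 cells in the gained regions, and in the rank differences of shared regions, was not tested.

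Regions gained at both oxygen levels were listed after their values were seen, and the highest ranked beside that of Ppm1h was an intronic region of Myo5b, a myosin of vesicle recycling (89.0 and 84.9 in normoxia, 91.8 and 88.1 in hypoxia). Pdzd2 held 2 such regions, the first at chr15:12490609-12491580 (95.6 and 84.4, then 91.0 and 79.5). A region of Osmr, the oncostatin M receptor, ranked at 76.2 and 72.3 and then at 90.6 and 72.5. The start sites of Hnrnpf, an RNA-binding protein, and Zfand2a, a stress-response gene, were also in this set. No gene of the microglial list had a region gained at both oxygen levels.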

How the data were processed

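ATAC-seq libraries of BV2 cells were sequenced as pairs of 151 bp reads. Per the submitters' processing notes the tools were Trimmomatic 0.36, HISAT2 2.1.0, Picard, SAMtools, deepTools and MACS2 2.1.1.2, on mm10; their settings, and any shift for the Tn5 insertion, are not given in the sources used here. The authors deposited 1 narrowPeak list per library, so peaks were not called on pooled replicates. Each list has the deposited fold enrichment (a ratio of summit to background), the deposited −log10 p and −log10 q (all above 2), the deposited score, made from the q-value, and the deposited summit offset, all used only within a list. No read totals were used here, and depth was solved from the deposited fold and −log10 p under a Poisson model, which returned the −log10 p to within 0.001 for at least 99.98% of peaks. Intervals cover counting error only.

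Peaks on chromosomes 1 to 19 and X were merged (overlap of 1 bp) and classed by the rule of both against neither. Peaks wider than 10 kb were kept. Genes (21631 protein-coding) and 32619 start sites came from RefSeq tables of GRCm38.p6, the assembly of mm10. The start-site table is not complete. The labels call the replicates biological. With 2 libraries a group the exact permutation test cannot reach 0.05. Named regions were the 15 gained and 10 lost with the highest lower percentile, the 10 widest gaps each way and, per list, genes with lost or lower regions and up to 4 with the highest gains. Others were chosen after their values were seen. The values of 1 gene that the rule names are not reported here. Members and gene lists were chosen with earlier results of these data known. The alternatives were equal list length, −log10 q of at least 5, depth scaling, no wide peaks, windows of 250 bp around summits, other gaps and distances, leaving out each library, and a replicate block. The merging, calls and ranks were tested on simulated lists. Python 3.11.15, numpy 2.4.6, pandas 2.3.3, scipy 1.17.1 and matplotlib 3.10.9 were used.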

Additional observations from a re-analysis of the deposited data

Results flagged for a closer look

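In normoxia 114 regions were gained with co-culture that were lost with it in hypoxia, 2.24% of the gained regions against 2.58% of all merged regions with that hypoxic pattern, so the count is near the background. The opposite directions in normoxia and hypoxia are how these regions were chosen. The difference was not tested. The highest ranked was a region within Tlcd4, with percentiles of 84.1 and 89.9 in normoxic co-culture and 91.4 and 90.1 in hypoxic monoculture and no peak in the other 4 lists. Regions within Maml2, a co-activator of Notch (72.1 and 78.8), and Slc44a5 (75.2 and 69.2) followed.

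Chromosome Y was outside the comparison. It held 10 peaks in each normoxic co-culture list, against 7 in each normoxic monoculture list. The hypoxic co-culture lists had 11 and 8 and the hypoxic monoculture lists 5 and 6.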

How the results depend on the processing

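Every count of gained regions exceeded its count of lost regions under the alternatives run. The co-culture lists stayed longer in all of these except the lists of equal number, so the constant direction adds no support there. In lists of equal number monoculture replicate 2 kept all its peaks and the other lists only their strongest. Lists of equal number, where the difference in peak number is 0 by construction, gave 966 gained and 586 lost, put 42.2% of gained regions at start sites, left 13.3% of them also gained in hypoxia, and reduced the list genes' excess over protein-coding genes from 10.6 to 1.45 points. At a −log10 q of at least 5, 49 regions were lost, 36.7% of gained regions were at start sites and 14.7% were gained in hypoxia too. Whole-list percentiles gave 1632 higher and 78 lower, a gap of 5 points 902 and 926, and a gap of 20 points 192 and 212. Within 5 kb, 41.3% of gained regions had a start site, and within 50 kb of the gene the excess was 18.9 points. The requirement that a peak cover at least 200 bp of the region leaves each count as it is by construction, since regions are unions of peaks and the shortest peak has 270 bp.

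Leaving out 1 library loosens the rule of both against neither. Gains then ran from 6362 to 8981, losses from 201 to 1162, regions ranked higher from 1045 to 1836 and lower from 1063 to 1816. The most gains came without co-culture replicate 1 (8981) and the most losses without monoculture replicate 2 (1162). The share of gained regions at start sites ran from 25.3% to 36.3%, the share also gained in hypoxia from 10.5% to 13.2% and the list genes' excess from 11.4 to 19.9 points. The difference in peak number ran from 8472 to 11895.

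Same-numbered replicates did not deviate together in rank (correlation of rank deviations −0.033 over 6905 shared regions). That value does not settle whether same-numbered libraries form pairs. With the replicate block, 786 regions ranked higher and 795 lower, and the difference in peak number, 10184 on chromosomes 1 to 19 and X, had an exact sign-flip p of 0.5, the smallest 2 pairs allow. Without chromosome 10, an alternative chosen after seeing the data, 4756 regions were gained and 80 lost. Of the 4677 regions gained in lists scaled to the lowest coverage, 4611 overlap a region gained as deposited.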
